A study of Homo sapiens with 10 samples.

Results

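The interferon-stimulated genes examined here were a list of 41 genes, each known to be switched on when cells sense an interferon. Of these, 40 were measured, by 1 probe set each, among 19775 genes on the array, and STAT2 was not analysed here. Members were chosen by name, and each was represented by its probe set of highest mean log2 intensity among those with exactly 1 gene symbol. At or above the median expression of all genes lay 35 members, which were tested. The other 5, MX1, HERC5, HERC6, SAMD9L and TRIM22, lay below it, and their values are given without a test. Of the 35, 4 (OAS2, IFI44L, IFI16 and XAF1) had an unsorted mean below that level, so they passed through the sorted arrays, and counts over the tested members describe those members only.

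The arrays came from cultured human gastric cancer cells. Side population cells (4 arrays, replicates a to d) are the few that keep little of a Hoechst DNA dye because membrane transporters pump it out, and non-side population cells (4 arrays, replicates a to d) are the dye-retaining rest separated from them by flow cytometry. Both are called sorted here, and they were set against unsorted cells (2 arrays, replicates a and b). The origin label of every array names AGS and MKN 45, established gastric carcinoma lines grown in RPMI medium with fetal bovine serum and harvested with trypsin. A separate source label names AGS on 8 arrays and leaves the line open on the other 2, replicates a and b of side population cells. The labels give no genotype change or drug, no sorting gate, and no statement on whether unsorted cells were stained or passed through the sorter. They do not say that the replicates were separate cultures, so a p-value reflects only how these samples spread, and that spread may be technical.

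Interferons are secreted alarm signals that bind paired receptors on the cell surface and activate JAK kinases, which phosphorylate STAT proteins. A STAT complex that contains IRF9 binds the interferon-stimulated response element (ISRE) in promoters, and STAT dimers bind the gamma-activated site (GAS). The genes switched on in this way encode sensors, enzymes and membrane proteins that block virus entry, replication or release, and almost every nucleated cell, epithelial cells included, can express them.

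Expression was deposited as intensities on a linear scale, already scaled to a common trimmed mean (500.065 to 500.095), and array medians lay between 58.7 and 85.4. Side population replicate a stood apart by RNA quality, with a ratio of 3′ to 5′ signal of 3.34 for actin and 1.87 for GAPDH, against 0.987 to 1.28 and 0.864 to 1.06 on the other 9 arrays. The 5′ probe set of 18S ribosomal RNA read 851 in array d of side population cells, 563 in array c of non-side population cells and 275 and 828 in the 2 unsorted arrays, against 22182 to 33704 on the other 6 sorted arrays. Epithelial markers were present on all arrays (EPCAM 17745 to 29017), while CDH1 was low at 242 to 468. The blood cell markers PTPRC and CD3E read at most 34.4 and 69 on any array, while LYZ and HBB of the same list read 20247 to 32403 and 85.1 to 233. Of the endothelial and fibroblast markers, COL1A1 read 1018 to 2010 and each other gene at most 200.8 (PECAM1). No 2 arrays held identical values. In bulk RNA of this kind, fewer cells with a transcript and less transcript per cell cannot be told apart, and the number of arrays limits the precision.

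Relative to unsorted cells, sorted cells had higher levels of a block of interferon-stimulated genes. Of 35 tested members 33 had a positive log2 fold change and 2, IFIT2 and OASL, a negative one, with a median of 0.92 against 0.0076 over all 9888 genes tested. In the limma fit 9 members rose: BST2, IFI44L, IFI27, IFI6, IFI44, CMPK2, IFI16, UBE2L6 and IRF9. None of the 35 fell in that fit. Over all genes tested, 3.47% were called higher and 1.54% lower, and 23 members and 2010 genes had an unadjusted p under 0.05. Fold changes are differences of log2(intensity + 6.1), which understates the change of genes with low intensity, and a gene was called at a Benjamini-Hochberg adjusted p under 0.05. With no expression filter, 6 of the 40 measured members were called higher and 0 lower, where 1.54% and 0.485% of 19775 genes were.

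The calls rested on the 2 unsorted arrays more than on any sorted one. Without unsorted replicate a, 1 member was called (IFI27), and without unsorted replicate b there were 2 (IFI27 and IFI6). Leaving out 1 sorted array gave 6 to 13. IFI27 was called in all 23 alternatives tried, while BST2, IFI44, IFI44L and IFI16 lost their call without unsorted replicate a or b, and IFI6 without a. Their log2 fold changes without those arrays stayed between 1.71 (IFI16) and 4.75 (BST2), with adjusted p from 0.0646 to 0.37.

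**Figure D1:**
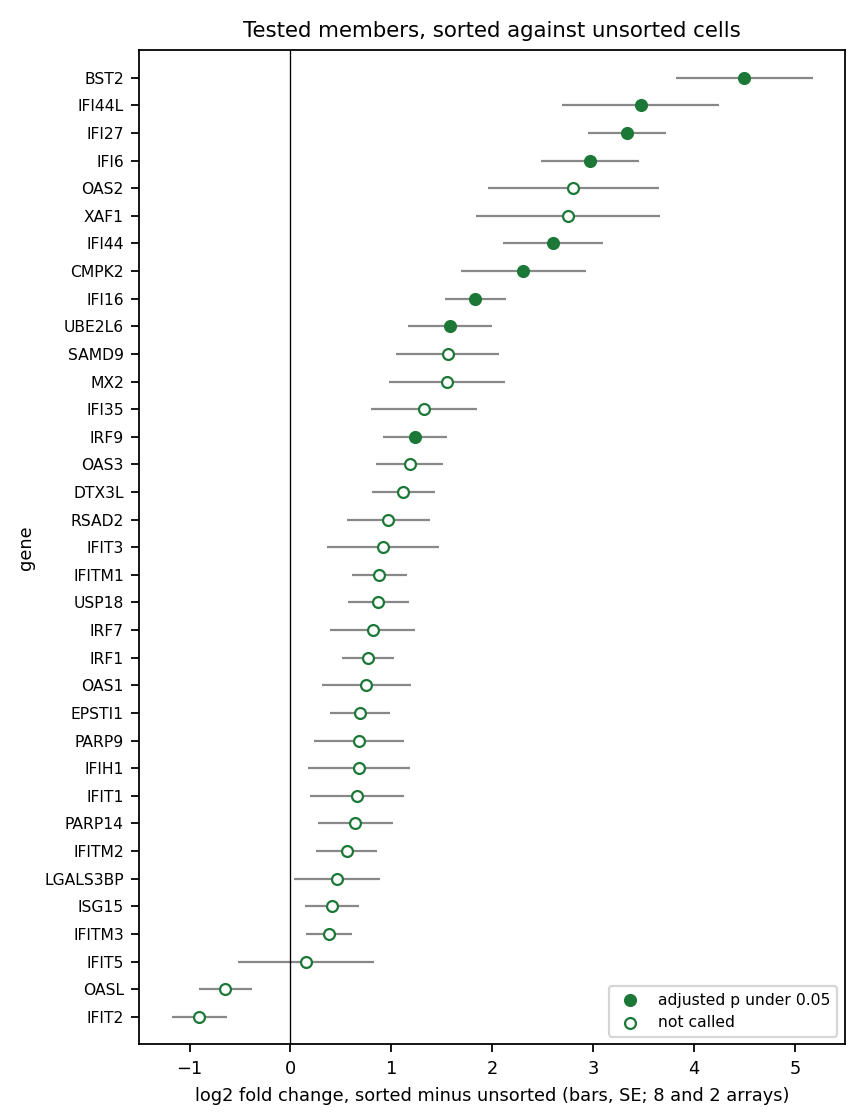
Log2 fold change of each tested member, sorted minus unsorted (x axis, log2 units; bars, standard error of the fit over 8 and 2 arrays), with genes on the y axis in order of size. Filled points passed at an adjusted p under 0.05; BST2 lies farthest right at 4.50, and IFIT2 and OASL lie left of 0.

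The 6 members of smallest adjusted p were BST2, the ISG12 family genes IFI27 and IFI6, IFI44 with its paralog IFI44L, and IFI16. BST2 read 944, 2440.4, 8943 and 7094 in side population arrays a to d, 1503, 3719.9, 5447 and 7565 in non-side population arrays a to d, and 189.6 and 131 in the 2 unsorted arrays. BST2, or tetherin, is a membrane protein that holds budding virus particles at the cell surface. Each sorted array lay far above both unsorted ones, and within each sorted population replicate a was lowest, followed by b. The log2 fold change of BST2 was 4.50 ± 0.68 (adjusted p = 0.00279) for sorted against unsorted cells (SE, n = 8 and 2).

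IFI27 read 8726, 17410.4, 28435 and 29964 in side population arrays a to d, 14556, 26955, 18546 and 31092 in non-side population arrays a to d, and 2235 and 1809 in the 2 unsorted arrays. IFI27 encodes a small hydrophobic protein of mitochondrial and nuclear membranes, and its levels in sorted and unsorted cells did not overlap. Its log2 fold change was 3.33 ± 0.39 (adjusted p = 0.000484), the smallest p of any member. IFI6 read 7338, 11554, 17649 and 5803 in side population arrays a to d, 9674, 16033, 3914 and 17034 in non-side population arrays a to d, and 986 and 1596 in the 2 unsorted arrays. IFI6, a related small membrane protein with an antiapoptotic role, was also above both unsorted arrays in all 8 sorted ones, and rose, with a log2 fold change of 2.97 ± 0.48 (adjusted p = 0.00418). Its lowest sorted values, in non-side population replicate c and side population replicate d, fell on the 2 sorted arrays with low 18S signal, and the part of that in the result was not tested.

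Promoters are shown for 3 of these genes as examples of windows that hold the core of the ISRE. Whether members that move together share this motif was not tested. The windows are from RefSeq, 250 bases before to 50 after the annotated start, on build GRCh38.p14, and capitals mark each ISRE core, searched as GAAANNGAAA on both strands (TTTCNNTTTC on the other). BST2 lies at chr19:17405581-17405880 on the minus strand, and its 2 matches, at 130 and 124 bases before the start, overlap each other. IFI27 lies at chr14:94110486-94110785 on the plus strand, with matches at 108 and 95 bases before the start, 1 in each orientation. IFI44L lies at chr1:78620198-78620497 on the plus strand, with matches at 164 and 73 bases before the start.
BST2: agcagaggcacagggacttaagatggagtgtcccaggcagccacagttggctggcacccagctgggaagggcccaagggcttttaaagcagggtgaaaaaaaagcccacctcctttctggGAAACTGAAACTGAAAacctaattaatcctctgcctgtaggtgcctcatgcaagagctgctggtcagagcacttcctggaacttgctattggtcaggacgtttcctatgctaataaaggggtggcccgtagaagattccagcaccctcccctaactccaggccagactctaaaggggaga
IFI27: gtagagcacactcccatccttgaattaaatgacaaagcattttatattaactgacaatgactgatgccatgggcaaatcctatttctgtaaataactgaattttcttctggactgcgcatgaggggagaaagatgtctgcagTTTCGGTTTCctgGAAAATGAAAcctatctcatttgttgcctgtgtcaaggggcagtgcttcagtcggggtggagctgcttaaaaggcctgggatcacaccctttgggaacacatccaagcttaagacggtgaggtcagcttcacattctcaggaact
IFI44L: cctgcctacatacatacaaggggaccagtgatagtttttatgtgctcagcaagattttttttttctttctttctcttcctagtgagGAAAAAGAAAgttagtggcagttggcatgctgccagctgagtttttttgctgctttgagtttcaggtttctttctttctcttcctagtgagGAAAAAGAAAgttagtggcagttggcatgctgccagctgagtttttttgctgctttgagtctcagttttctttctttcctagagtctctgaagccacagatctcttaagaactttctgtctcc
Of the 41 listed genes 32 had a window, and 22 of these (68.75%) held at least 1 ISRE core, where 4.376% of all 27305 gene symbols with a window did. A GAS match, TTCNNNGAA, was found for 10 of the 32 (31.25%), against 9.376% of all symbols. A match describes letters in this window and is not evidence of a bound site. The core was present in 5 of the 9 members called between sorted and unsorted cells: BST2, IFI27, IFI6, IFI44 and IFI44L. It was not in the windows of IFI16, CMPK2, UBE2L6 or IRF9.

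IFI44 read 360.1, 743, 1722 and 1377 in side population arrays a to d, 562, 1801, 1315 and 1426 in non-side population arrays a to d, and 186 and 144 in the 2 unsorted arrays. IFI44 is a cytoplasmic protein with antiviral activity, and its 8 sorted values all exceeded the unsorted ones. Its log2 fold change was 2.60 ± 0.49 (adjusted p = 0.00962). A second, dimmer probe set of IFI44 gave 1.325. In the limma fit of every probe set on its own it was not called (adjusted p = 0.259), while the one used was (adjusted p = 0.0164). IFI44L read 114, 425, 1115 and 1071 in side population arrays a to d, 155, 822, 1491 and 938 in non-side population arrays a to d, and 37.3 and 55.7 in the 2 unsorted arrays. Here both sorted replicates a were far below the other 6 sorted arrays yet above unsorted cells, whose values lay below their array medians of 60.9 and 58.7. The log2 fold change of IFI44L was 3.47 ± 0.78 (adjusted p = 0.0214), and 3.24 when values lower than an array's median were set to that median.

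IFI16 read 342, 646, 635 and 664 in side population arrays a to d, 372, 533, 653 and 581 in non-side population arrays a to d, and 135 and 159.8 in the 2 unsorted arrays. IFI16 is a sensor of DNA, and its sorted values were above both unsorted ones, with the 2 replicates a lowest. Its log2 fold change was 1.83 ± 0.30 (adjusted p = 0.00418). A further probe set of IFI16 gave 2.45 in a fit of every probe set on its own, and another gave 0.62.

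**Figure D2:**
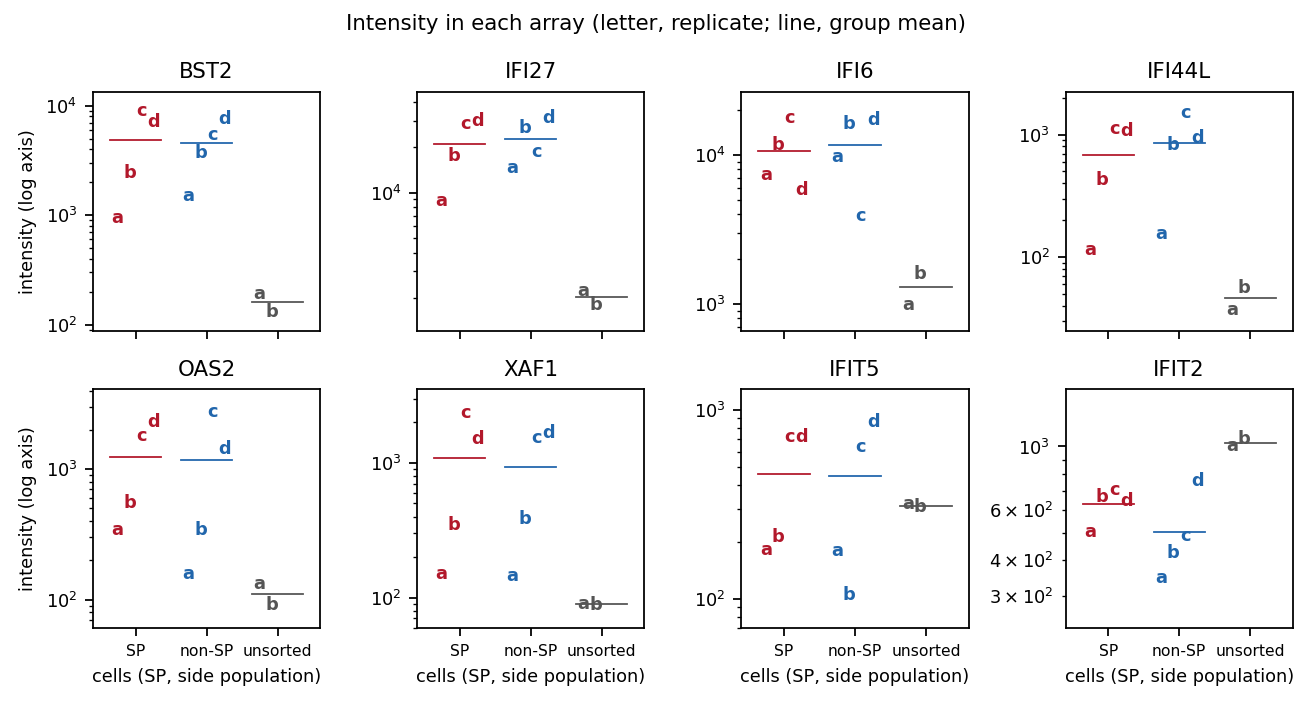
Intensity (y axes, log scale) of 8 members in side population (SP), non-side population and unsorted cells; each letter is 1 array and names its replicate, and lines are group means. BST2, IFI27, IFI6, IFI44L, OAS2 and XAF1 are above unsorted cells in all 8 sorted arrays. BST2, IFI44L, OAS2 and XAF1 have replicates c and d all above a and b. IFIT5 lies below unsorted cells in a and b and above them in c and d, and IFIT2 is below unsorted cells throughout.

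Among the transcription factors of the response, IRF9, the DNA-binding partner of the STAT complex, rose. IRF9 read 1254, 1524, 2851 and 2452 in side population arrays a to d, 1569, 1910.0, 2655 and 3094 in non-side population arrays a to d, and 828 and 923 in the 2 unsorted arrays. Sorted and unsorted values of IRF9 did not overlap, and the log2 fold change was 1.23 ± 0.32 (adjusted p = 0.0404). The call was lost without side population replicate c or d or non-side population replicate d (adjusted p = 0.0564, 0.0578 and 0.0623), and without unsorted replicate a or b (0.487 and 0.297), and with no expression filter (0.0588). IRF7 read 688, 604, 1649 and 1766 in side population arrays a to d, 701, 894, 1717 and 1669.7 in non-side population arrays a to d, and 663 and 588 in the 2 unsorted arrays. IRF7, the master inducer of interferon alpha genes, was near its unsorted level in replicates a and b of both populations and well above it in c and d, and its log2 fold change of 0.82 ± 0.42 did not pass (adjusted p = 0.298).

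IRF1 read 889, 774, 533 and 825 in side population arrays a to d, 1028, 703, 1092 and 769.8 in non-side population arrays a to d, and 469.7 and 477 in the 2 unsorted arrays. IRF1, induced mainly by interferon gamma, was above unsorted cells in all 8 sorted arrays with no order by letter, and stood at 0.77 ± 0.26 (adjusted p = 0.105). A second probe set of IRF1 gave a log2 fold change of 1.56 (adjusted p = 0.00679 when every probe set was fitted on its own), so the call for this gene depended on the probe set.

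Of 7 sensing and antiviral enzyme genes, CMPK2, a mitochondrial nucleotide kinase, was the 1 that rose. CMPK2 read 296, 549.7, 1602 and 1598 in side population arrays a to d, 393, 507, 1478 and 1807 in non-side population arrays a to d, and 169 and 157 in the 2 unsorted arrays. All sorted values of CMPK2 were above the unsorted ones, and replicates c and d were clearly above a and b. Its log2 fold change was 2.31 ± 0.62 (adjusted p = 0.0453). This call was lost without side population replicate c or d (adjusted p = 0.068 and 0.0563), non-side population replicate c or d (0.0517 and 0.0649) or unsorted replicate a or b (0.428 and 0.346). It was also lost with no expression filter (0.0711), with every probe set fitted on its own (0.0585) and with eBayes without a trend (0.0501).

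The oligoadenylate synthetases, which make the messenger that activates RNase L, differed among themselves. OAS2 read 339.5, 549, 1786 and 2285 in side population arrays a to d, 157, 341, 2742 and 1436 in non-side population arrays a to d, and 132 and 90.4 in the 2 unsorted arrays. OAS2 reached its highest levels in replicates c and d, and non-side population replicate a came close to unsorted cells. The log2 fold change of OAS2, 2.80 ± 0.85 (adjusted p = 0.0742), did not pass. OAS1 ranged from 3311 to 5124 in replicates c and d and from 1475 to 2916 in a and b, against 1794 and 1614 in unsorted cells (0.75 ± 0.44, not called). OAS3 ranged from 2316 to 6063 in sorted and from 1477 to 1773 in unsorted cells, with no overlap, and was not called either (1.18 ± 0.33).

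OASL read 755, 788, 1106 and 1391 in side population arrays a to d, 1013, 1611, 1261 and 1301 in non-side population arrays a to d, and 1721 and 1783 in the 2 unsorted arrays. OASL, a relative of this family that enhances RNA sensing, was below both unsorted arrays in all 8 sorted ones, with a log2 fold change of -0.64 ± 0.27 (adjusted p = 0.184). RSAD2, or viperin, which makes a chain-terminating nucleotide, read 460.2 to 724 in replicates c and d and 204 to 496 in a and b, against 182 to 225 in unsorted cells. It was not called (0.97 ± 0.41).

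IFIH1 read 639, 758, 1739 and 1738 in side population arrays a to d, 443, 586, 1796 and 1678 in non-side population arrays a to d, and 556 and 723 in the 2 unsorted arrays. IFIH1 encodes MDA5, a sensor of long double-stranded RNA. Replicates a and b of both populations lay around the unsorted level and c and d well above it, and the log2 fold change of 0.68 ± 0.50 (adjusted p = 0.483) did not pass.

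The 4 IFIT proteins, which bind viral RNA or its cap, did not move as 1 family, and none was called in the limma fit of sorted against unsorted cells (adjusted p from 0.0772 to 0.923). IFIT5 read 181, 212, 720.2 and 717 in side population arrays a to d, 179, 105, 637 and 857 in non-side population arrays a to d, and 317 and 305 in the 2 unsorted arrays. IFIT5 was below unsorted cells in replicates a and b of both populations and above them in c and d. These are values of 1 probe set, whose log2 fold change for sorted against unsorted cells was 0.16. A second probe set of IFIT5 gave 0.89. IFIT2 read 502, 668, 702 and 643 in side population arrays a to d, 347, 423, 488 and 758 in non-side population arrays a to d, and 1003 and 1059 in the 2 unsorted arrays. IFIT2 was below both unsorted arrays in every sorted array, with a log2 fold change of -0.90 ± 0.28. In replicates a and b IFIT1 read 1958 to 4559 and IFIT3 1060.2 to 1943, and both sets overlapped the unsorted values. In replicates c and d IFIT1 ranged from 4032 to 7844, and unsorted cells had 2469 and 2652. IFIT3 ranged from 3023 to 4936 in replicates c and d, and unsorted cells had 952 and 1483.

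The promoters of IFIT5 and IFIH1 are shown because their levels in replicates a and b lay around or below those of unsorted cells. BST2 was above unsorted cells in all sorted arrays, and its replicates c and d were also all above a and b. IFIT5 lies at chr10:89414318-89414617 on the plus strand of GRCh38.p14, with ISRE cores in capitals at 45, 19 and 4 bases before the start. IFIH1 lies at chr2:162318635-162318934 on the minus strand, with 3 cores at 159, 153 and 21 bases before the start, of which the first pair overlap.
IFIT5: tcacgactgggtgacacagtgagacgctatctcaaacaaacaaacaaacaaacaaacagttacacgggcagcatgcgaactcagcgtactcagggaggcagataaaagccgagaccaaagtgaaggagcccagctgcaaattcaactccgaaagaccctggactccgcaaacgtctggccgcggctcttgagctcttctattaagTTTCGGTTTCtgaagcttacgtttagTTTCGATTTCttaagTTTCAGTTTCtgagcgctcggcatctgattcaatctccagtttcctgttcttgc
IFIH1: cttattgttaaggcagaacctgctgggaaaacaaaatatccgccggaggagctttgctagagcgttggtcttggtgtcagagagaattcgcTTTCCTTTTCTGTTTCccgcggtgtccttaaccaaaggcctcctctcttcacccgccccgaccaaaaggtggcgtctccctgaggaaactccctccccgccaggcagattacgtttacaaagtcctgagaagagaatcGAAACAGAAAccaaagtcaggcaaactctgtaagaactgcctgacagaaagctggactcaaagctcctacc
Of the members with a window, 10 of 17 whose replicates c and d all lay above a and b held an ISRE core, as did 12 of 15 whose letters overlapped. PARP9 and DTX3L, which are transcribed away from each other, share 1 core at chr3:122564332-122564341.

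The dynamin-like GTPases trap viral components inside cells. MX2 read 599, 492, 1840.2 and 1873 in side population arrays a to d, 569, 424, 1728 and 1835 in non-side population arrays a to d, and 356 and 301 in the 2 unsorted arrays. MX2 was above both unsorted arrays in all sorted ones and highest in replicates c and d, with a log2 fold change of 1.55 ± 0.57 (adjusted p = 0.141). MX1 was below the expression filter, at 11.6 to 95 in sorted and 43 to 83.8 in unsorted cells.

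Among the membrane restriction factors, BST2 was the 1 called, and the IFITM proteins, which block fusion of virus and cell membranes, were abundant in all cells. IFITM1 ranged from 16746 to 34139.5 in sorted and from 12212 to 14032 in unsorted cells, without overlap (0.88 ± 0.28, not called). IFITM2 ranged from 5855 to 13691 in sorted and 5149 to 5690.1 in unsorted cells (0.56 ± 0.30, not called). IFITM3 overlapped, at 16299 to 27141 in sorted and 15144 to 18025 in unsorted cells (0.39 ± 0.23).

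In the ISG15 system, which attaches a ubiquitin-like tag to proteins, the conjugating enzyme gene UBE2L6 rose while the tag itself did not pass. UBE2L6 read 1355, 1447, 4767 and 3705 in side population arrays a to d, 2006, 2784, 3827 and 3820.4 in non-side population arrays a to d, and 993 and 817 in the 2 unsorted arrays. Sorted values of UBE2L6 all exceeded the unsorted ones, and the log2 fold change was 1.58 ± 0.42 (adjusted p = 0.0434). It lost its call without side population replicate d (adjusted p = 0.0568), non-side population replicate c or d (0.0505 and 0.069) or unsorted replicate a or b (0.393 and 0.392). The call of UBE2L6 was also lost with no expression filter (0.0644) and with every probe set fitted on its own (0.0545). ISG15 ranged from 10825 to 23026 in sorted and 11811 to 12051 in unsorted cells, which overlapped (0.41 ± 0.27). USP18, which removes the tag and dampens the interferon receptor, had 464 to 1186 in sorted and 402 to 456 in unsorted cells, without overlap and without a call (0.87 ± 0.30). HERC5, the ligase of the system, and its relative HERC6 were below the filter, at most 204 and 59.9 in any sorted array.

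PARP9, PARP14 and DTX3L act on ADP-ribose and ubiquitin marks, and PARP9 with DTX3L forms a ligase complex. PARP9 read 727, 1209, 1882 and 2025 in side population arrays a to d, 635, 753, 1988 and 1974 in non-side population arrays a to d, and 787 and 780.1 in the 2 unsorted arrays. PARP9 was slightly below the unsorted level in array a of side population cells and arrays a and b of non-side population cells, and above it in the other sorted arrays (0.68 ± 0.44). DTX3L was above unsorted cells in all 8 sorted arrays, at 1682 to 4440.1 against 1358 to 1534 (1.12 ± 0.31). PARP14 read 346 to 1169 in sorted and 375 to 432 in unsorted cells (0.64 ± 0.37), and none of the 3 was called (adjusted p from 0.0535 to 0.418).

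XAF1 read 150.0, 346, 2358 and 1494 in side population arrays a to d, 144, 382, 1531 and 1680.3 in non-side population arrays a to d, and 90.4 and 88.7 in the 2 unsorted arrays. XAF1, a proapoptotic antagonist of XIAP, showed the widest gap between letters of all members, with replicates c and d far above a and b and every sorted array above unsorted cells. Its log2 fold change of 2.75 ± 0.92 (adjusted p = 0.101) did not pass. SAMD9, an antiviral factor that blocks translation, read 1042 to 1871 in replicates c and d and 251 to 691 in a and b, against 221 to 309 in unsorted cells (1.56 ± 0.51). Its neighbour SAMD9L was below the filter, at 93.2 to 237 in sorted and 58.6 to 73.5 in unsorted cells. IFI35 had 1268 to 1875 in replicates c and d, 452 to 722 in a and b and 309 to 413 in unsorted cells (1.32 ± 0.52).

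EPSTI1, an interferon-induced gene, was above unsorted cells in all sorted arrays, at 2617 to 6181 against 2549 to 2563 (0.69 ± 0.30). LGALS3BP, a secreted glycoprotein that binds galectins, read 9588 to 17771 in replicates c and d, 4491 to 7755 in a and b and 6139.5 to 7955 in unsorted cells (0.46 ± 0.43). TRIM22, a ubiquitin ligase with antiviral activity, stayed below the filter at 51.4 to 202 in sorted and 35.8 to 65.9 in unsorted cells. None of the members in this paragraph was called.

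**Figure D3:**
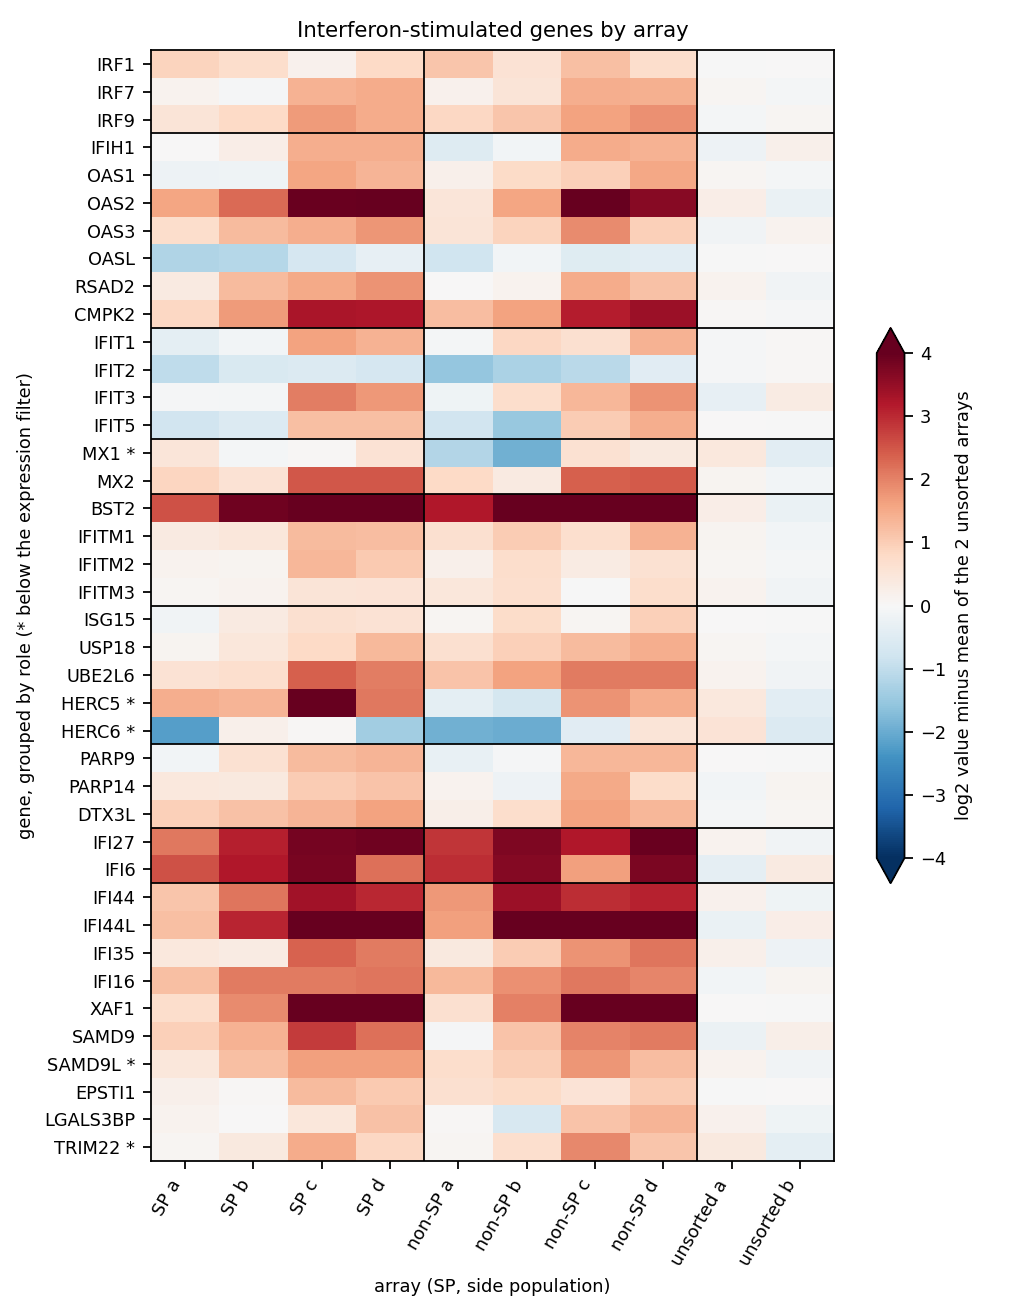
Each measured member (rows, grouped by role; an asterisk marks genes below the expression filter) in each of the 10 arrays (columns), coloured by its log2 value minus the mean of the 2 unsorted arrays, blue below 0 and red above, with the colours ending at 4 units. Columns c and d of both sorted populations are redder than a and b for most rows, and BST2, IFI27, IFI6, IFI44 and IFI44L are red in all 8 sorted arrays.

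How far the members stood above unsorted cells differed between sorted replicates, in the same way in both populations. The median of the 35 tested members, relative to unsorted cells, was 0.41, 0.58, 1.51 and 1.49 log2 units in side population replicates a to d, and 0.45, 0.78, 1.49 and 1.44 in non-side population replicates a to d. The median of all genes tested stayed between -0.04 and 0.09 on the same arrays. In replicates c and d, 26 to 30 members were at least 1 log2 unit above unsorted cells on each array, against 7 to 14 in replicates a and b. Of all genes tested, 5.42% to 9.87% were that high on each sorted array. The range over the 8 sorted arrays had a median of 1.80 log2 units among members and 1.08 among all genes tested. Side population replicate a was the lowest of the 8 arrays for 14 members and non-side population replicate a for 10. Highest were side population replicate c for 11 members and non-side population replicate d for 10. With the array of raised 3′ to 5′ ratios left out, side population replicate a, 10 members were called between sorted and unsorted cells, against 9 with it. Without it, 260 of all 9888 genes tested were called higher and 110 lower, against 343 and 152 with it.

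**Figure D4:**
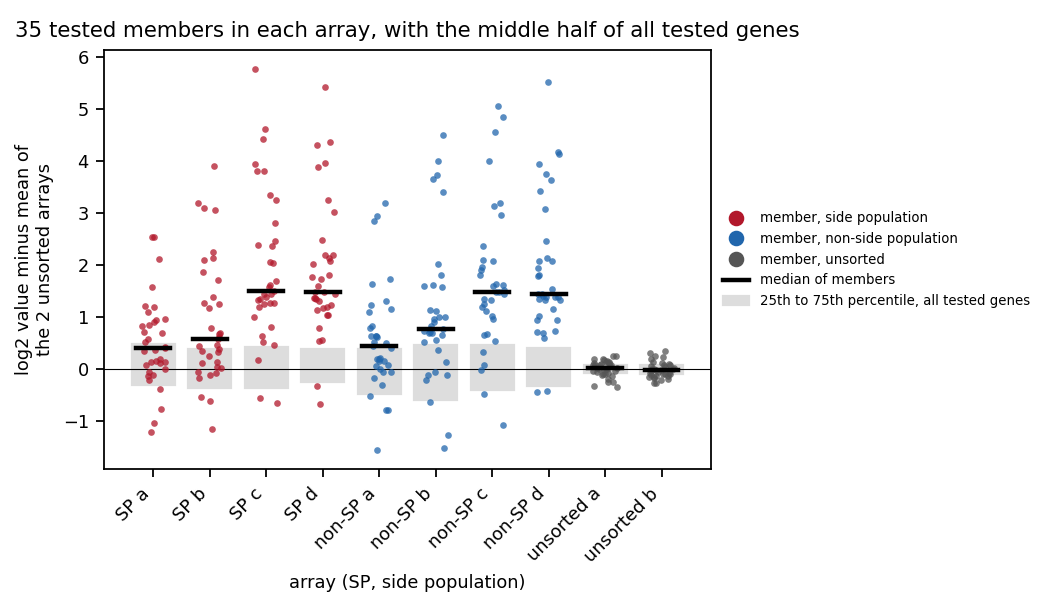
Log2 value minus the mean of the 2 unsorted arrays (y axis) for the 35 tested members (points) in each array (x axis), with the median of the members as a black line and the 25th to 75th percentile of all tested genes as a grey box. The black lines stand at 0.41 to 0.78 in replicates a and b and at 1.44 to 1.51 in c and d of both sorted populations.

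The division of letters a and b from c and d was picked with these data in view, so the values that follow describe it and are not tested. The 4 arrays of replicates c and d were all above the 4 of a and b for 21 of the 40 measured members (19 of the 35 tested), where 8.32% of all genes tested had this order. They were all below for 0 members, where 6.08% of all genes tested were. The median difference of c and d minus a and b was 1.05 log2 units over the tested members and 0.034 over all genes tested. It was largest for XAF1 (2.87), OAS2 (2.64), IFIT5 (2.11), IFI44L (1.99), CMPK2 (1.92), BST2 (1.91) and MX2 (1.80) among the tested members. IFI6 (-0.24) and IRF1 (-0.11) were the tested members not higher in c and d on average.

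Against unsorted cells, replicates c and d were all higher for 35 of the 40 measured members, where 24.4% of all genes tested were, and replicates a and b for 21, where 20.2% were. Replicates a and b were all below unsorted cells for 3, IFIT2, OASL and IFIT5, where 17.3% were. All 8 sorted arrays were above both unsorted ones for 21 of the 40 (11% of all genes tested) and below for IFIT2 and OASL (9.53%). Fitted with the sorted arrays of c and d alone, 30 tested members were called higher and 1 lower, beside 12.1% and 7.25% of all genes, with a median of 1.48. Fitted with those of a and b alone, 14 were called higher and 2 lower, beside 11.1% and 10.3%, with a median of 0.54. These fits share the 2 unsorted arrays, and since the letters were divided after the data were seen, their adjusted p may be too small. A division picked from the data can itself narrow the spread within each set of arrays. The counts of 30 and 14 therefore describe those arrays, and neither they nor the gap between them is a test of the members or the letters.

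Within the lower pair of letters, replicate b was above a in both populations for 27 of the 40 measured members, where 28.8% of all genes tested had that order, and below it for 6, where 34.3% did. Within the upper pair, replicate d was above c in both populations for 6 members (21.1% of all genes tested) and below it for 5 (16%). In side population cells the arrays lettered a and b are also those with no line in the source label, so letter and label cannot be told apart there. Non-side population replicates a and b are labelled AGS like c and d, and the members' medians were 0.45 and 0.78 there. With the arrays labelled AGS alone, 16 members were called higher and 0 lower between sorted and unsorted cells, beside 2.99% and 1.26% of all genes, with a median of 1.18.

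**Figure D5:**
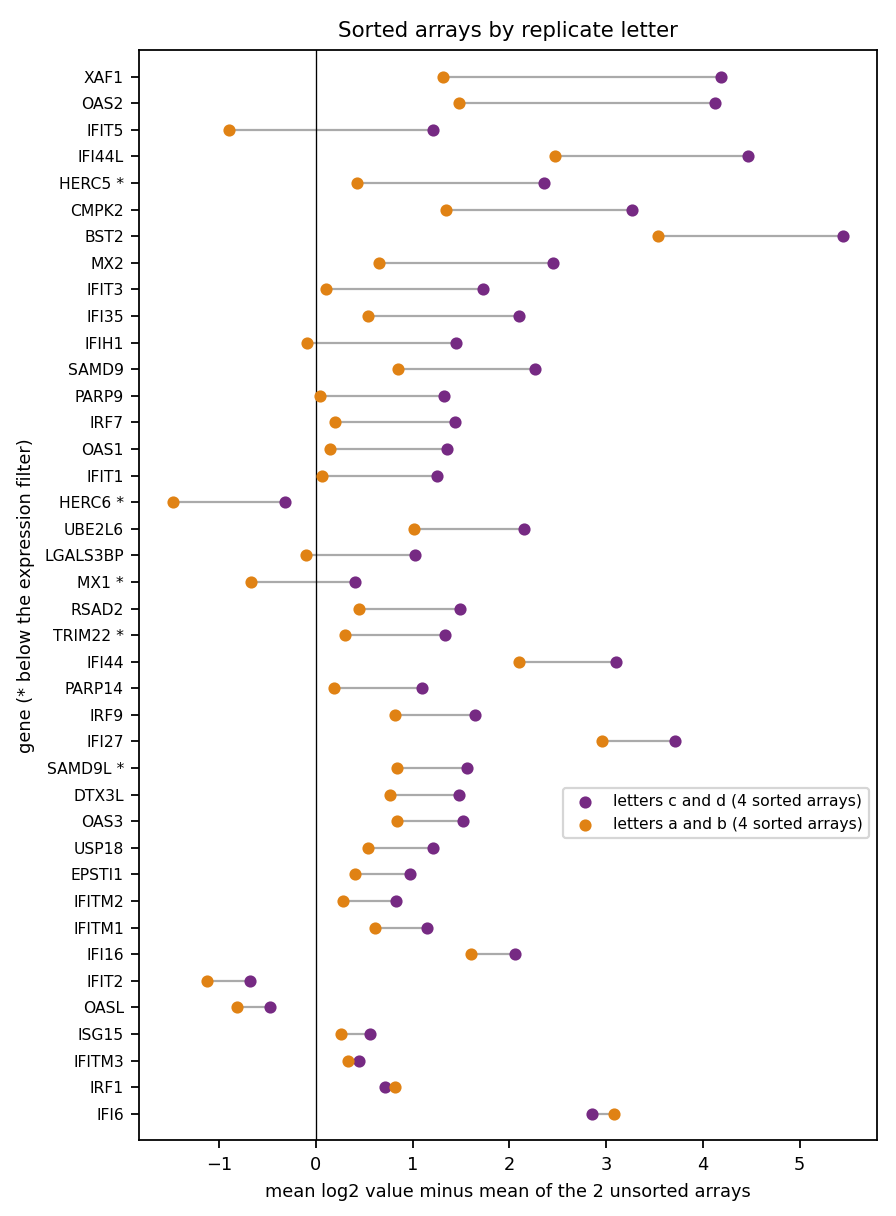
For each measured member (y axis, ordered by the gap; an asterisk marks genes below the filter), the mean log2 value of the 4 sorted arrays of replicates c and d (purple) and of the 4 of replicates a and b (orange), minus the mean of the 2 unsorted arrays (x axis). Purple lies right of orange for all members but IFI6 and IRF1, and the gap is widest for XAF1 at 2.87.

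Between side population and non-side population cells no tested member passed. The limma fit called 0 of 35 members and 0 of 9888 genes (0% in either direction), with a smallest adjusted p of 0.997 among members, and 0 members against 430 genes had an unadjusted p under 0.05. Log2 fold changes of the 35 tested members lay between -0.41 and 0.55 with a median of -0.06, 14 positive and 21 negative. The largest among these were SAMD9 at 0.55 ± 0.46 and RSAD2 at 0.54 ± 0.37 (SE, n = 4 each). Below the filter and without a test, HERC5 was at 1.71, from a mean intensity of 39.5, and MX1 at 0.77. HERC6 was at 0.12, SAMD9L at 0.06 and TRIM22 at -0.25. For 0 members were all 4 side population arrays above, or all 4 below, the non-side population ones, where 1.01% and 0.576% of all genes tested were. The median size of the difference was 0.20 log2 units over the tested members and 0.17 over all genes. Standard errors differed by gene, for example 0.23 for IRF1, 0.61 for BST2 and 0.76 for OAS2, so small differences were not detectable with these arrays.

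Set against unsorted cells separately, the 2 populations gave similar values over all their arrays, from fits that share the unsorted arrays. By letter, the members' median of side minus non-side population cells was -0.30 with a and b, against 0.097 over all genes tested. With c and d it was 0.14, against 0.015 over all genes tested, and this difference between letters was not tested. Side population cells had 5 members called higher (BST2, IFI27, IFI6, IFI44 and IFI16) and 0 lower, beside 1.81% and 0.536% of all genes, with 21 members at an unadjusted p under 0.05. Non-side population cells had 6, these and IFI44L, and 0 lower, beside 2.37% and 1.15% of all genes, with 21 members at an unadjusted p under 0.05. BST2 was at 4.41 ± 0.74 in side population cells and 4.58 ± 0.74 in non-side population cells, IFI27 at 3.23 ± 0.43 and 3.44 ± 0.43, and IFI44L at 3.27 ± 0.85 (adjusted p = 0.058) and 3.67 ± 0.85 (adjusted p = 0.0303). The count of 5 was 1 without unsorted replicate a, 0 without b and 8 without non-side population replicate c. The count of 6 was 1 without either unsorted array.

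Of the genes that send and receive the interferon signal, the interferons were below the expression filter and were not tested. The tested receptor and kinase genes had no calls between sorted and unsorted cells. Of the 21 interferon genes listed 18 were measured and 0 reached the expression filter, with intensities from 0.9 to 317.6, and 16 of the 18 read below the filter, at an intensity of 149, on all 10 arrays. IFNL1, a lambda interferon, was highest in unsorted cells (318 and 264), against 29.1 to 189 in sorted cells, and IFNB1 read 2.2 to 19.7 in sorted and 45.1 and 51.6 in unsorted cells. All 7 tested receptor and kinase genes were not called in the limma fit (median log2 fold change -0.09, smallest adjusted p 0.448), among them IFNAR1, a chain of the receptor for alpha and beta interferons, at 0.37 ± 0.26, and IFNGR1, of the gamma receptor, at -0.10 ± 0.20. Other factors of the pathway were likewise not called in 6 tested genes (smallest adjusted p 0.232). Of the 9 measured receptor and kinase genes, JAK2 and IFNLR1 were below the filter and not tested. JAK2 read 101.4 to 198.3 in sorted and 271 and 227.5 in unsorted cells, and IFNLR1 at most 106.6 on any array.

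Among 8 tested nucleic acid sensors and adaptors 1 rose and 1 fell, where 3.47% of all genes tested were called higher and 1.54% lower. TRAF3, an adaptor that links sensors to interferon induction, rose, at 1.01 ± 0.27 (adjusted p = 0.0428), and CGAS, the sensor of cytosolic DNA, fell, at -1.24 ± 0.28 (adjusted p = 0.0214). DDX60, a helicase that promotes RNA sensing, read 3362 to 4895 in replicates c and d and 1092 to 1676 in a and b, against 1221 and 1403 in unsorted cells, and did not pass (0.83 ± 0.52). Of 8 negative regulators SOCS3, an inhibitor of cytokine receptors, rose at 1.14 ± 0.29 (adjusted p = 0.0359) and PIAS1, an inhibitor of STAT proteins, fell at -1.13 ± 0.26 (adjusted p = 0.0239), beside the same shares of all genes.

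Of 33 tested further interferon-stimulated genes outside the list 6 rose and 0 fell, with 23 positive and a median of 0.52, and replicates c and d were all above a and b for 11. Over all genes tested, 3.47% were called higher, 1.54% lower, and 8.32% had this order of letters. EIF2AK2 read 1772, 1925, 2059.6 and 2070.0 in side population arrays a to d, 1554, 2266, 2875 and 2006 in non-side population arrays a to d, and 649 and 787 in the 2 unsorted arrays. EIF2AK2, the kinase PKR that halts translation, was raised alike in all sorted arrays, at 1.50 ± 0.24 (adjusted p = 0.00403). ZC3HAV1, which degrades CpG-rich viral RNA, was at 1.18 ± 0.23 (adjusted p = 0.0112), GBP1, a guanylate-binding GTPase, at 1.91 ± 0.41 (adjusted p = 0.0174) and SHFL, an inhibitor of ribosomal frameshifting, at 1.48 ± 0.35 (adjusted p = 0.0274). GBP1 and SHFL had replicates c and d all above a and b, and EIF2AK2 and ZC3HAV1 did not. Of 15 tested genes of antigen presentation by MHC class I, 3 rose and 0 fell, namely HLA-C (1.71 ± 0.34 (adjusted p = 0.0121)), the immunoproteasome subunit PSMB9 (1.79 ± 0.41 (adjusted p = 0.0225)) and HLA-B (1.59 ± 0.37 (adjusted p = 0.0255)). Class I genes can share probe sequence, so their separate values are uncertain. For 0 of the 15 were replicates c and d all above a and b. The shares of all genes are again 3.47% higher, 1.54% lower and 8.32% with that order.

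Genes outside the member list also had profiles close to that of the members. Over the 10 arrays the tested genes most like the members' mean profile were ABCA1, a lipid transporter (Pearson r = 0.984), TTC17 (0.982), PSMB8-AS1, an antisense RNA beside an immunoproteasome gene (0.973), and FGG, the fibrinogen gamma chain (0.963). They were followed by LAMP3 (0.962), the collagenase MMP1 (0.957), TESC (0.956), B4GALT6 (0.954), the trypsin inhibitor SPINK1 (0.953) and SP110 (0.950). These are descriptions over arrays that fall into the same sets. A pair of marker lists also separated the letters: the summed level of 9 measured blood cell markers was 28802 to 32944 in replicates c and d, 20824 to 21996 in a and b and 29122 and 29148 in unsorted cells. LYZ, a lysozyme that gastric cells also make, gave nearly all of it. Of the other 8, HBB read at most 233, ITGAM 201, CD14 112, MS4A1 88.3, CD3D 70.0, CD3E 69, CLEC4C 35.1 and PTPRC 34.4 on any array. The summed level of 6 genes linked to MKN45 cells was 29193 to 32771 in replicates c and d, 14496 to 28454 in a and b and 20362 and 20389.6 in unsorted cells. Within this list only LGALS4 had replicates c and d all above a and b, at 4418 to 6452 against 621 to 3262. The letters overlapped for each other gene of the list. Of these 6, 1 was called higher in sorted cells and 0 lower, with 4 positive: CEACAM5, a cell adhesion molecule, rose, at 2.52 ± 0.36 (adjusted p = 0.00185). The 2 with negative values were not called: CEACAM6 read 8443 to 10116 in sorted and 12208 to 12701 in unsorted cells, at -0.45 ± 0.18 (adjusted p = 0.178), and CDH1 was at -0.38 ± 0.26 (adjusted p = 0.442). The part of either list in the members' pattern was not tested.

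Where a member had further probe sets they mostly pointed the same way. Of 40 measured members 21 had 1 probe set and 19 had several, with 24 probe sets besides those used. For sorted against unsorted cells 22 of the 24 had the same sign as the one used. The exceptions were dim probe sets of IFIH1 (-0.74) and PARP14 (-0.23), with mean intensities of 50.9 and 45.7.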

How the data were processed

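The series holds 10 one-colour arrays of total RNA. The authors deposited intensities on a linear scale for 54675 probe sets an array, and GCOS 1.4 is the tool listed, per the submitters' processing notes, with no settings. No label or header names the algorithm that summarised the probes. The platform annotation gave 1 gene symbol for 41097 probe sets, several for 1801 and none for 11777, and the gene identifiers of 41043 were found in the gene table. Values were taken as log2 after adding 6.1 (the 10th percentile over all arrays). Each gene was represented by its probe set of highest mean log2 value, and genes at or above the median of these means were tested (9888 of 19775, an intensity of 149).

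Groups were compared in R 4.3.3 with limma 3.58.1, whose empirical Bayes step used a trend, in a single fit of 10 arrays and 3 groups without covariates, with Benjamini-Hochberg adjustment over all genes tested. The fit was tested on simulated data. Alternatives changed the constant, the filter, the scaling, the probe set, the arrays used and the replicate letter as a block.

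The members, the lists of related genes and the division of letters were chosen with earlier results of these data known. All members may be named. Of the other lists the text names up to 4 genes of smallest p, marker genes, and the 10 genes most like the members' mean profile. IFNL1, IFNB1, JAK2 and IFNLR1 were named after their values were seen. Promoters are from RefSeq.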

Additional observations from a re-analysis of the deposited data

Results flagged for a closer look

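In groups of 4 sorted arrays, an array was singled out where its gap to the nearest other, divided by the range of the group, was above Dixon's 95% value of 0.829. Over 90 such groups 3 arrays were singled out, where chance gives about 1 in 20. IFI16 in side population replicate a, at 342, was the lowest of its group with a ratio of 0.932. The other 2 are measures of RNA quality on the same array: the 3′ to 5′ ratio of actin, 3.34, with a ratio of 0.946, and that of GAPDH, 1.87, with 0.874. Whether RNA quality had a part in the IFI16 value was not tested.

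IFIT5 was above unsorted cells in every sorted array of replicates c and d and below them in every one of a and b, and the means of these sets differed by 2.11 log2 units. That difference was not tested, and it comes from 1 probe set of IFIT5. A second probe set gave a log2 fold change of 0.89 for sorted against unsorted cells, against 0.16 for the one used.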

How the results depend on the processing

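The counts of called members between sorted and unsorted cells (9 in the report) stayed within 1.5 times under another constant, no filter, quantile normalization, other probe sets and eBayes without a trend. With a filter at the 75th percentile 5 were called, of 18 tested, with arrays labelled AGS alone 16, with letters a and b alone 16 (14 higher, 2 lower), with letters c and d alone 31 (30 higher, 1 lower), and leaving out 1 array gave 1 to 13. For side population against unsorted cells (5) the count was 3 with the 75th percentile filter, 9 with the compared groups alone, 10 with letters a and b (8 higher, 2 lower), 29 with c and d, and 0 to 8 leaving out 1 array. For non-side population against unsorted cells (6) it was 16 with letters a and b (14 higher, 2 lower), 30 with c and d, and 1 to 9 leaving out 1 array. Between the populations it was 0 throughout. The letters were divided after the data were seen, so the counts by letter describe those arrays and are no test of the members. Between sorted and unsorted cells, 11.1% and 10.3% of all genes were called higher and lower with letters a and b. With letters c and d these shares were 12.1% and 7.25%.

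Same-lettered arrays of the 2 populations had deviations correlated at 0.212, 0.498, -0.117 and 0.364 for a to d over genes. Side population replicates a and b correlated best with their own letter, and c and d with non-side population replicates d and c (0.255 and 0.429). The titles give both sorted populations the same replicate groups, SPa to SPd, so the samples may be paired, and the labels do not say what the groups stand for. Since the pair lettered c did not deviate together, the fit reported does not pair them, and the fit with a block is given beside it. With the replicate block the counts were 11 (10 higher, 1 lower) for sorted, 10 for side population and 12 (11 higher, 1 lower) for non-side population against unsorted cells, and 0 between the populations. With the block, 5.65% and 4.99% of all genes were called higher and lower between sorted and unsorted cells. Unsorted arrays carry letters a and b only, so this fit sets sorted against unsorted within those letters. Their groups are named UCPa and UCPb, so the labels do not tie them to SPa and SPb. IRF9 had a log2 fold change of 0.82 there and was not called (adjusted p = 0.0521).

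Direction turned for few members, none of them called in the report. Between sorted and unsorted cells IFIH1 was at -0.090, LGALS3BP at -0.10 and IFIT5 at -0.90 both with the replicate block and with letters a and b, and IFIT5 ranged from -0.077 to 0.42 leaving out 1 array. Between side population and unsorted cells LGALS3BP was at -0.11 and IFIT5 at -0.78 with the block, OAS1 at -0.19, IFIT1 at -0.25, IFIT3 at -0.064 and IFIT5 at -0.65 with letters a and b, and IFIT5 ranged from -0.037 to 0.62 leaving out 1 array. Between non-side population and unsorted cells the block gave -0.20 for IFIH1, -1.01 for IFIT5, -0.0645 for PARP9 and -0.094 for LGALS3BP. Letters a and b gave -0.31 for IFIH1, -1.15 for IFIT5, -0.18 for PARP9, -0.030 for PARP14 and -0.29 for LGALS3BP there, quantile normalization gave -0.0081 for IFIT5, and leaving out 1 array -0.43 to 0.56. The cause of these changes was not tested, beyond the arrays each setting leaves out.

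Over all 9888 genes tested, the count between sorted and unsorted cells (495) was 1052 with the block, 2121 and 1910 with letters a and b and letters c and d, and 12 and 44 without unsorted replicates a and b. It was 190 of 4944 genes with the 75th percentile filter, and 1043 of 20549 probe sets with every probe set. Counts under these 2 settings have the same totals below. For side population (232) it was 100 with the 75th percentile filter, 431 with every probe set, 437 with the compared groups, 94 with arrays labelled AGS, 734 with the block, 1391 with letters a and b, 1186 with letters c and d, and 9 to 393 leaving out 1 array. For non-side population (348) it was 144 with the 75th percentile filter, 736 with every probe set, 196 with the compared groups, 381 with arrays labelled AGS, 967 with the block, 2569 with letters a and b, 1504 with letters c and d, and 12 to 656 leaving out 1 array. Between the populations, 1012 genes were called with letters a and b alone, of which 0 were members, and 0 otherwise. The 2 unsorted arrays and the low signal of 5 members limit what could be tested.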
